A study of Mus musculus with 15 samples.

Results

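The 10 genes described here, Ctrb1, Ctrl, Ctrc, Prss2, Prss3, Try4, Try5, Cela1, Cela2a and Cela3b, belong to the pancreatic serine protease zymogen family. They were chosen by name, with earlier results of these data known, from the 19938 genes that had a probe set of their own on the arrays. RefSeq lists Ctrc as a transcribed pseudogene in the build used here. Each was read from 1 probe set annotated to that gene only, and all 10 passed the filter on low values. Sox9-EGFP or Ngn3-EGFP males had been mated with wild-type CD1 females, and pancreas was taken from e10.5 and e15.5 embryos (e, embryonic day) and from p23 Sox9-EGFP pups (p, postnatal day). Cells with strong GFP signal made up the Sox9-GFP+ sorts, 1 for each of the 3 ages, and the Ngn3-GFP+ sort of e15.5, and cells without GFP from Sox9-EGFP pups made up the GFP- sort of p23. Every group had 3 arrays, numbered 1 to 3 in the labels, for 15 arrays in all. All groups carried an EGFP reporter and a CD1 dam, several animals were pooled for each sort, and the sequences that drive the reporters are not given in the sources used here. GFP protein can outlast the activity of the gene it reports, which limits each GFP+ sort as a model of the cells that express Sox9 or Ngn3 at that moment.

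Acinar cells of the pancreas make digestive proteases as inactive zymogens and store them in granules. In the gut lumen enteropeptidase cuts trypsinogen to trypsin, and trypsin then activates trypsinogen itself, the chymotrypsinogens and the proelastases. Chymotrypsins cut after large hydrophobic residues, trypsins after lysine and arginine, and elastases mostly after small residues. In the acinar cell a trimer of Ptf1a, an E protein and Rbpjl drives many of these genes, and trypsin inhibitors such as the one coded by Spink1 travel with the zymogens.

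Levels are log2(intensity + 16), on which a difference of 1 is close to a doubling well above the offset. Genes were kept when at least 3 arrays exceeded an intensity of 97.8, or 6.83 on this scale, and a level below 6.83 is called dim here. Levels of different genes come from different probes and are not compared with each other. Changes are given with the standard error and the Benjamini-Hochberg adjusted p of limma over 16883 genes, and a change was called at 0.05. The arrays were pools of animals, and each gene had a single estimate of spread shared by all 5 groups. The p-values thus measure the spread between pools over all groups, not only in the groups compared. In sorted bulk cells fewer zymogen-making cells and less zymogen RNA per cell cannot be told apart.

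The sorts mostly carried the markers of their labels. The Sox9 level ranged from 11.84 to 12.12 on the e10.5 arrays, from 12.10 to 12.14 on the Sox9-GFP+ arrays of e15.5, from 11.62 to 12.10 on those of p23 and from 8.68 to 10.08 on the GFP- arrays. On Ngn3-GFP+ arrays Sox9 ranged from 10.13 to 11.21, below every Sox9-GFP+ array of the same age. Neurog3, the gene reported by Ngn3-EGFP, ranged from 11.53 to 12.21 on Ngn3-GFP+ arrays and from 11.66 to 12.12 on Sox9-GFP+ arrays of e15.5. Thus Neurog3, unlike Sox9, did not set the e15.5 sorts apart. At p23, 6 of 8 ductal markers were higher in Sox9-GFP+ than in GFP- cells and all 10 leukocyte markers were lower. Ptprc, the leukocyte surface marker CD45, was at 14.28 to 14.64 in GFP- arrays and at 8.12, 10.64 and 10.09 in Sox9-GFP+ arrays 1, 2 and 3 of p23. The embryonic globin gene Hbb-y was high in 3 arrays, at 10.48 and 11.20 in e10.5 arrays 1 and 2 and 9.98 in Sox9-GFP+ e15.5 array 1, against 5.85 to 6.35 in the other arrays.

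RefSeq sequences of the 250 bases before the gene start were at hand for 8 of the 10 genes. The promoters of Ctrb1 and Ctrl are shown because these chymotrypsin-type genes stood at opposite ends of the order of onset, and those of Prss3 and Try4 because these trypsinogen genes lie in one cluster and were read with different courses. Capitals mark matches to CACCTG, an E-box form bound by Ptf1a with its E protein, to TTCCCA, the core of sites bound by Rbpj and Rbpjl, and to TATAAA, the TATA box. A match on the other strand is printed as CAGGTG or TGGGAA. The sequences are from build GRCm38.p6, 5′ to 3′ along the gene: Ctrb1 at chr8:111691011-111691260 on the minus strand, Ctrl at chr8:105933863-105934112 on the minus strand, Prss3 at chr6:41377614-41377863 on the minus strand and Try4 at chr6:41302022-41302271 on the plus strand.
Ctrb1: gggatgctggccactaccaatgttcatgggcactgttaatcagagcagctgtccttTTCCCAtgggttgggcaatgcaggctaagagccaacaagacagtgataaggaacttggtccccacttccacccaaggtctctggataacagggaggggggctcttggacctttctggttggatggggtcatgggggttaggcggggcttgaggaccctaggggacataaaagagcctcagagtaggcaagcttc
Ctrl: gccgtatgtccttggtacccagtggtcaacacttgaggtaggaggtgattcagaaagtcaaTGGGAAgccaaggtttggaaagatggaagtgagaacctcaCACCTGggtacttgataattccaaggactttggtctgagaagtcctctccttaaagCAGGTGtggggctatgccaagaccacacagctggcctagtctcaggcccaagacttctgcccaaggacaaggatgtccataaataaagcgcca
Prss3: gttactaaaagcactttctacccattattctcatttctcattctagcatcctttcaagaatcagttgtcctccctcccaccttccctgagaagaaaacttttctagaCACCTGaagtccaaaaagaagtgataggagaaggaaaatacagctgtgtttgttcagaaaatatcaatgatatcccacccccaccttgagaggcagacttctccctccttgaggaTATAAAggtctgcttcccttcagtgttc
Try4: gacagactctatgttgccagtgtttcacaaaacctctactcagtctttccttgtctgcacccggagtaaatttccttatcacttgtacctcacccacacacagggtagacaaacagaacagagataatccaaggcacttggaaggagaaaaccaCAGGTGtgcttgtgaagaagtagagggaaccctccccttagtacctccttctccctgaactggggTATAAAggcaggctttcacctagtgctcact

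Among the 8 promoters, searched on both strands from 250 bases before to 50 after the start, 7 held CACCTG, against 20.2% of all 32851 promoters of that length. Ctrb1 was the one without it. TTCCCA was present in 4 of 8 (Cela2a, Ctrb1, Ctrl and Prss2), against 25.6% of all promoters, and both motifs in 3 of 8, against 5.27%. TATAAA was present in 4 of 8 (Cela1, Prss2, Prss3 and Try4), against 13.6%. The Nr5a2 site TCAAGGNCA was in none of the 8 windows and in 1.62% of all promoters. No matches overlapped. In Ctrl the first bases of the CACCTG matches lay 149 and 93 bases before the start and the TTCCCA match began 189 bases before it, while in Ctrb1 TTCCCA began 194 bases before the start. In Prss3 and Try4 the E-box match began 143 and 96 bases, and the TATAAA match 28 and 31 bases, before the start. In a global alignment over the full windows Prss3 and Try4 were 61.7% identical, Prss2 and Try4 61.0% and Prss2 and Prss3 57.9%, and the other 25 pairs of promoters lay between 48.1 and 53.1%.

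In the annotation Try4, Try5, the trypsinogen-family gene Try10 and Prss3 follow each other on chromosome 6 with no other protein-coding gene or transcribed pseudogene between them, and Prss1 and Prss2 follow Prss3 after 2 such genes. Cela2a and Ctrc are neighbours on chromosome 4, Cela3b lies on the same chromosome beside Cela3a, Ctrl and Ctrb1 lie on chromosome 8 with 78 such genes between them, and Cela1 is on chromosome 15. Prss3 is shared by 2 further probe sets that also name Prss1 and were left out.

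Between e10.5 and e15.5 in Sox9-GFP+ cells, 8 of the 10 zymogen genes rose, against 12.2% of all genes tested that were higher. The median change of the 10 was 2.48 and that of all genes -0.05. From e15.5 to p23, 9 of 10 rose, against 30.7% of all genes, with a median change of 4.22 against 0.05 over all genes. Over the whole interval all 10 rose, against 17.7% of all genes, by 6.15 for Ctrl to 7.85 for Try4, with a median of 6.72 against -0.01. Markers of other cell types moved too. From e10.5 to e15.5, 4 of 8 ductal, 5 of 8 endocrine and 3 of 8 mesenchyme markers were higher and no leukocyte marker was called, and from e15.5 to p23, 8 of 10 leukocyte and 7 of 8 endothelial markers were higher and 7 of 8 endocrine markers lower. Their part in the rises was not tested. Later arrays lay above all earlier arrays for 8 of 10 members in the first interval, 10 in the second and 10 over both, where 26.1, 38.7 and 22.5% of all genes were higher without overlap.

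**Figure D1:**
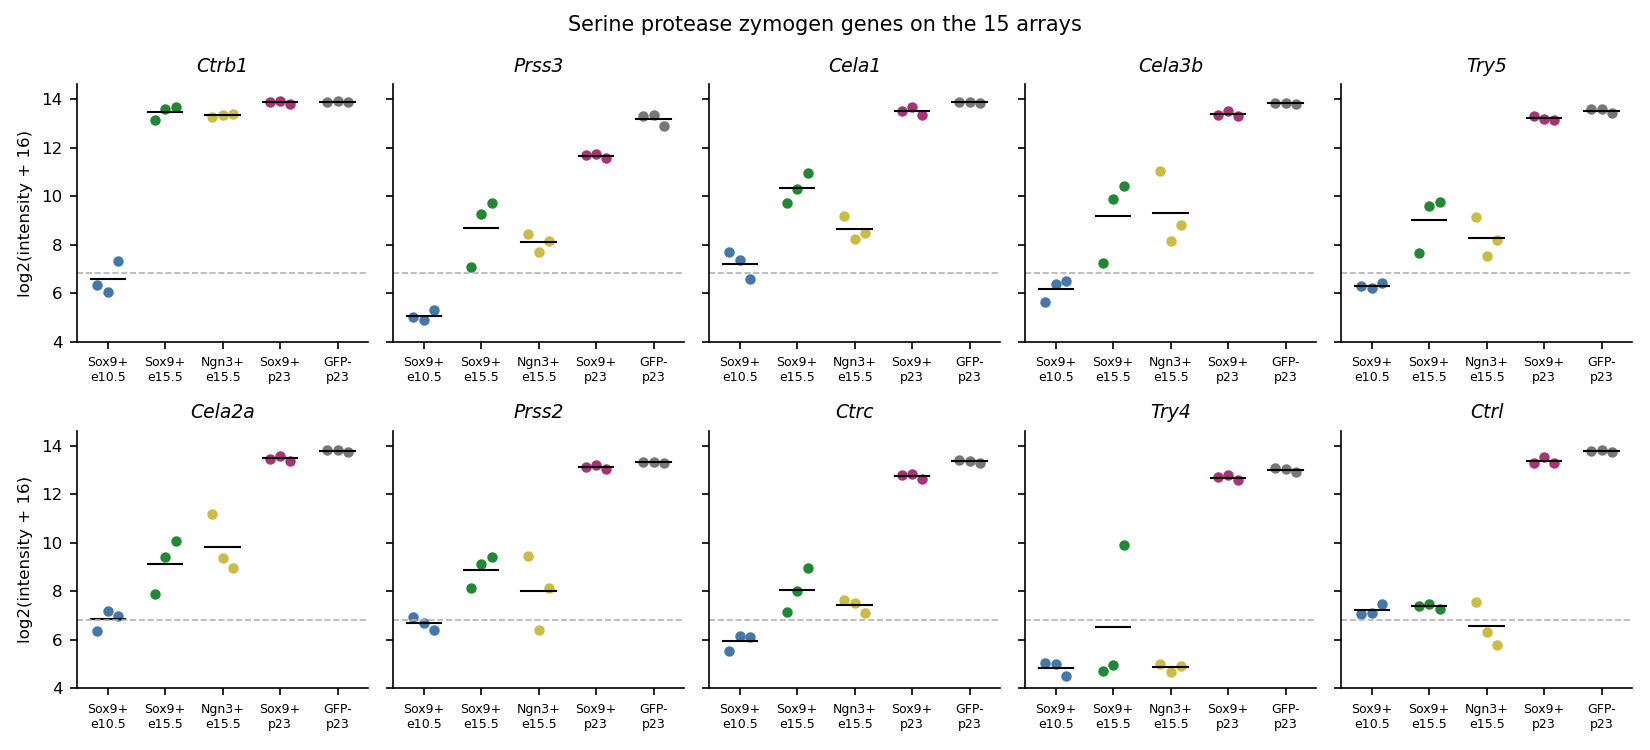
Level of each zymogen gene, log2(intensity + 16), on the 15 arrays. Points are single arrays in the order of their replicate numbers, short bars are means of 3 arrays and the dashed line is the filter level of 6.83. Ctrb1 was at 13.16 or above in all e15.5 arrays, while Ctrl stayed at or below 7.57 until p23.

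Ctrb1, which codes for chymotrypsinogen B, made nearly all of its rise before e15.5. The 3 e10.5 arrays read 6.33, 6.04 and 7.34, the Sox9-GFP+ arrays of e15.5 13.16, 13.57 and 13.69, and those of p23 13.90, 13.93 and 13.81. Dim in 2 of 3 arrays at e10.5, it was bright in every later array, and the 3 stages did not overlap. The first step was 6.90 ± 0.24 (SE, n = 3 and 3; limma, adjusted p = 2.87e-10). The second step was 0.41 ± 0.24 and was not called (limma, adjusted p = 0.161), although its groups did not overlap. It was called with only the arrays of both groups in the fit (limma, adjusted p = 0.0365) and with array weights (limma, adjusted p = 0.00866), and under quantile normalization the change was -0.061. Ctrb1 was the highest gene of all on Sox9-GFP+ e15.5 arrays 2 and 3, so its second step was read at the top of the array scale, and compression there was not tested. On this scale it had covered 94.4% of its log2 rise from e10.5 to p23 by e15.5.

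Ctrl codes for a chymotrypsin-like protease and followed the opposite course. Replicates 1 to 3 gave 7.05, 7.12 and 7.49 for e10.5, 7.41, 7.46 and 7.28 for Sox9-GFP+ e15.5, and 13.28, 13.54 and 13.29 for Sox9-GFP+ p23. The embryonic stages overlapped and all p23 arrays lay far above them. The first step was 0.16 ± 0.31 (limma, adjusted p = 0.714), and -0.13 without the 3 arrays with globin signal. The second step was 5.99 ± 0.31 (limma, adjusted p = 3.90e-09). Ctrl had covered 2.62% of its log2 rise by e15.5.

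Ctrc is named for chymotrypsin C, an enzyme that in humans cleaves trypsinogen to favour its activation or its breakdown. Dim on all e10.5 arrays (5.55, 6.15 and 6.12), it reached 7.14, 8.02 and 8.94 on the Sox9-GFP+ arrays of e15.5 and 12.79, 12.84 and 12.64 on those of p23. The stages did not overlap. Ctrc rose by 2.09 ± 0.32 in the first step (limma, adjusted p = 0.000496) and by 4.73 ± 0.32 in the second (limma, adjusted p = 6.42e-08), with 30.7% of the log2 rise in the first.

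The 4 trypsinogen genes were each read at e10.5, e15.5 and p23. Prss2, the gene of an anionic trypsinogen, gave 6.95, 6.70 and 6.40 on e10.5 arrays, 8.15, 9.10 and 9.40 on Sox9-GFP+ e15.5 arrays, and 13.11, 13.18 and 13.05 on Sox9-GFP+ p23 arrays. Its steps were 2.20 ± 0.52 (limma, adjusted p = 0.00924) and 4.23 ± 0.52 (limma, adjusted p = 2.27e-05), and its stages did not overlap. For Prss3 the values were 5.02, 4.89 and 5.29 for e10.5, 7.07, 9.27 and 9.73 for e15.5, and 11.68, 11.74 and 11.58 for p23. Dim at e10.5 on every array, it rose by 3.62 ± 0.47 (limma, adjusted p = 0.000123) and then by 2.98 ± 0.47 (limma, adjusted p = 0.000185), so that 54.9% of its log2 rise fell in the first step.

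Try5 read 6.32, 6.21 and 6.42 on the e10.5 arrays, 7.65, 9.61 and 9.77 on Sox9-GFP+ arrays of e15.5, and 13.28, 13.20 and 13.14 on those of p23. These stages did not overlap, and the steps were 2.70 ± 0.45 (limma, adjusted p = 0.000958) and 4.19 ± 0.45 (limma, adjusted p = 5.77e-06). Try4, which lies beside Try5, was dim at 5.04, 4.99 and 4.49 at e10.5. In the Sox9-GFP+ e15.5 arrays Try4 was at 4.71, 4.96 and 9.91, dim in replicates 1 and 2 and bright in replicate 3, and at p23 it was at 12.70, 12.77 and 12.58. Its first step of 1.69 ± 0.91 was not called (limma, adjusted p = 0.17) and was -0.0033 without replicate 3 of e15.5. Its second step was 6.16 ± 0.91 (limma, adjusted p = 0.000111).

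The proelastase genes moved in both intervals. The Cela1 level was 7.68, 7.39 and 6.59 on e10.5 arrays, 9.72, 10.29 and 10.95 on Sox9-GFP+ e15.5 arrays, and 13.52, 13.68 and 13.36 on Sox9-GFP+ p23 arrays. Its stages did not overlap and its steps were nearly equal, 3.10 ± 0.31 (limma, adjusted p = 1.29e-05) and 3.20 ± 0.31 (limma, adjusted p = 2.40e-06). Cela2a was at 6.36, 7.19 and 6.97, then 7.87, 9.40 and 10.06, then 13.45, 13.58 and 13.38 in the same groups. It rose by 2.27 ± 0.53 (limma, adjusted p = 0.00829) and by 4.36 ± 0.53 (limma, adjusted p = 1.90e-05), without overlap of the stages.

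Cela3b was dim at e10.5, at 5.66, 6.37 and 6.51. The Sox9-GFP+ arrays read 7.26, 9.87 and 10.44 for e15.5 and 13.36, 13.53 and 13.31 for p23. The spread within e15.5 was 3.17 between the lowest and the highest array, yet no stage overlapped another. Its steps were 3.01 ± 0.71 (limma, adjusted p = 0.00931) and 4.21 ± 0.71 (limma, adjusted p = 0.000329). Without replicate 3 of e15.5 the first was 2.39 and no longer called (limma, adjusted p = 0.0540).

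The order of onset was set by the share of the log2 rise from e10.5 to p23 that had been covered by e15.5. The share was 94.4% for Ctrb1, 54.9% for Prss3, 49.2% for Cela1, 41.7% for Cela3b, 39.1% for Try5, 34.3% for Cela2a, 34.2% for Prss2, 30.7% for Ctrc, 21.5% for Try4 and 2.62% for Ctrl. The share of Try4 rests on Sox9-GFP+ e15.5 replicate 3, at 9.91 against 4.71 and 4.96 in replicates 1 and 2. Without that array its first step was -0.0033, so the order of Try4 and Ctrl was not resolved. These shares start from dim values, since only 3 of 10 members exceeded the filter level on each e10.5 array. They end near the top of the array scale, except for Prss3. Its Sox9-GFP+ p23 arrays were at 11.58 to 11.74, below the 99th percentile of all genes. The difference between the later and the earlier step was tested in the same fit. It was called for 4 of 10 members, 3 with a larger later step, against 26.8% of all genes, and 1 with a larger earlier step, against 21% of all genes.

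**Figure D2:**
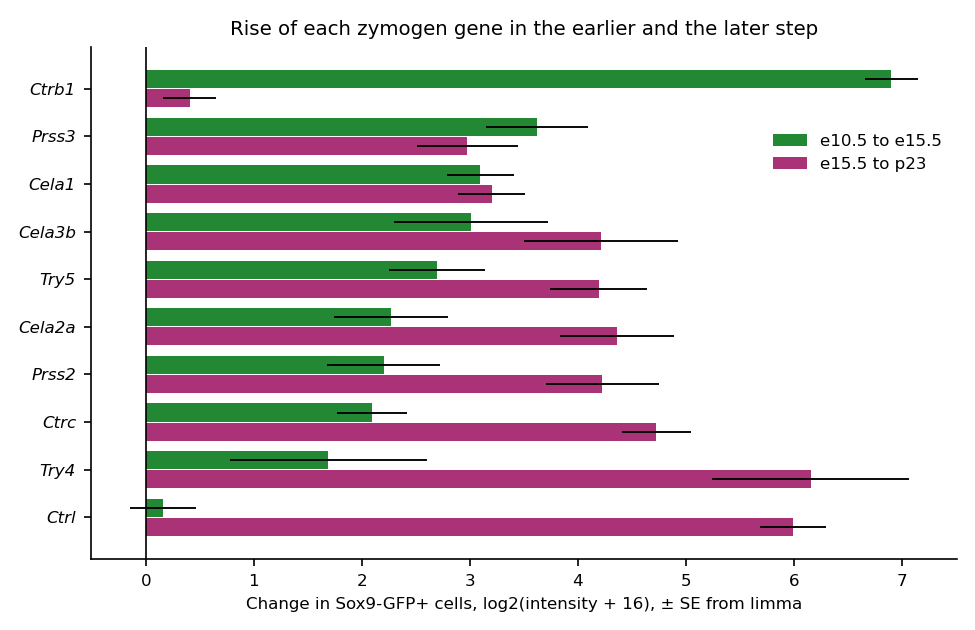
Change of each zymogen gene in Sox9-GFP+ cells over the earlier step (e10.5 to e15.5) and the later step (e15.5 to p23), on the log2(intensity + 16) scale, with standard errors from limma, ordered by the share of the rise covered by e15.5. The earlier bar is 6.90 for Ctrb1 and 0.16 for Ctrl, and the later bar is 0.41 and 5.99.

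The step difference of Ctrb1 was -6.50 ± 0.42 (limma, adjusted p = 2.08e-07). Ctrl had one of 5.83 ± 0.53 (limma, adjusted p = 3.93e-06), Ctrc of 2.63 ± 0.56 (limma, adjusted p = 0.00294) and Try4 of 4.47 ± 1.58 (limma, adjusted p = 0.0318). Ctrb1, Ctrl and Ctrc kept these calls in all 22 alternatives run, and Try4 lost its call in 9 of 22. In 6 of these 9 its step difference was still 4.39 to 4.80. It was 2.65 without Sox9-GFP+ e15.5 replicate 1, 2.90 without replicate 2 and 2.30 without the arrays of high Hbb-y. Without Sox9-GFP+ e15.5 replicate 3 the step difference of Try4 was larger, at 7.85, and stayed called. The middle of the order was not resolved: the step differences of Cela1, Cela2a, Cela3b, Prss2, Prss3 and Try5 were between -0.65 and 2.09 and were not called. With an offset of 64 those of Cela2a, Prss2 and Try5 were called as well, at 2.32, 2.29 and 1.87. Those of Cela2a and Prss2 were also called with only the groups of the comparison in the fit (limma, adjusted p = 0.0366 and 0.00559), and that of Prss2 with array weights (limma, adjusted p = 0.0104). Single e15.5 arrays moved several of the 6. Without replicate 1 Prss3 had a called step difference of -2.26, and Cela1 and Cela3b turned to -0.50 and -0.72, not called. Without replicate 3 Cela2a was called at 3.04, and Prss3 was at 0.40, not called. Without the arrays of high Hbb-y Prss3 was called at -2.04.

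The e15.5 arrays of Sox9-GFP+ cells differed from each other in the same sense for nearly all members. Replicate 1 was the lowest array for 9 of 10 members and replicate 3 the highest for 9 of 10, Ctrl being the exception in both. The mean level of the 10 genes was 8.01, 9.15 and 10.02 in replicates 1, 2 and 3. The median member had an SD of 1.01 there, against 0.09 for the median gene of the array, and 0.10 against 0.17 in Sox9-GFP+ cells at p23. Other digestive enzyme and granule genes moved in the same order, with a mean over 15 genes of 8.30, 9.21 and 9.47. Over the same arrays the mean of 5 erythroid markers was 7.56, 6.55 and 6.62, that of 8 endocrine markers 11.31, 12.22 and 12.00, that of 8 ductal markers 9.75, 9.98 and 10.16 and that of 8 mesenchyme markers 8.71, 8.93 and 9.24. The ductal and mesenchyme lists thus had the replicate order of the zymogen genes. The mean of 10 leukocyte markers was 6.90, 6.89 and 6.95 and that of 8 endothelial markers 6.86, 6.85 and 6.94. Their part in the spread of the zymogen genes was not tested.

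Among Ngn3-GFP+ arrays of e15.5 replicate 1 was the highest for 9 of 10 members, with member means of 9.19, 7.93 and 8.19. The other digestive enzyme genes were at 9.15, 7.95 and 8.50 in these arrays. The ductal markers, at 10.01, 9.08 and 9.58, and the leukocyte markers, at 7.49, 6.83 and 7.38, had the same replicate order. The mesenchyme markers were at 8.52, 8.79 and 9.33, and the part of these lists in the spread was not tested. At p23 the spread was small but again shared by members. Replicate 3 was the lowest array for 9 of 10 members in Sox9-GFP+ cells and for all 10 in GFP- cells, with member means of 13.11, 13.20 and 13.01 in the former and 13.59, 13.59 and 13.47 in the latter. The median member SD in GFP- cells was 0.05.

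**Figure D3:**
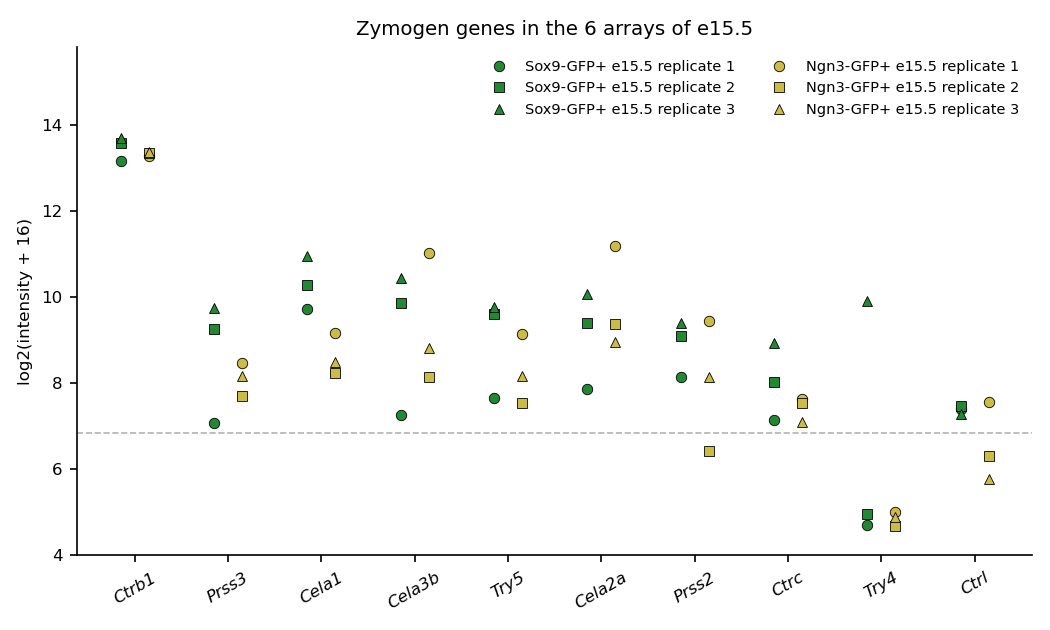
Level of each zymogen gene, log2(intensity + 16), in the 6 arrays of e15.5, with 1 symbol per replicate number and the filter level of 6.83 dashed. Sox9-GFP+ replicate 1 lies lowest of its sort for every gene but Ctrl, and Try4 is at 9.91 in Sox9-GFP+ replicate 3 and at 5.01 or below in the other 5 arrays.

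RNA of most zymogen genes was read in the Ngn3-GFP+ sort of e15.5. The part of acinar cells, or of RNA from them, in this sort was not tested. Ctrb1 was at 13.28, 13.33 and 13.37, within the range of the Sox9-GFP+ sort, and the difference of -0.15 ± 0.24 was not called (limma, adjusted p = 0.643). Compared with Sox9-GFP+ cells of the same age, 2 of 10 members were lower in Ngn3-GFP+ cells, against 18.4% of all genes, and none was higher, against 23.3%, nor at an unadjusted p under 0.05. The median change of the members was -0.67 and that of all genes 0.04. Without overlap 1 member was lower, against 24.3% of all genes.

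That member was Cela1, at 9.17, 8.24 and 8.50 in Ngn3-GFP+ arrays, below all Sox9-GFP+ arrays of e15.5. The difference was -1.68 ± 0.31 (limma, adjusted p = 0.00219) and was called in all 18 alternatives. Ctrl was at 7.57, 6.31 and 5.78, a difference of -0.83 ± 0.31 with overlapping groups (limma, adjusted p = 0.0441). That call was lost in 10 of 18 alternatives, including each removal of a single e15.5 array other than Ngn3-GFP+ replicate 1.

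The remaining members overlapped between the e15.5 sorts. Cela2a was at 11.18, 9.36 and 8.94 and Cela3b at 11.02, 8.15 and 8.81 in Ngn3-GFP+ cells, differences of 0.72 ± 0.53 and 0.14 ± 0.71. Prss2 was at 9.45, 6.41 and 8.13, Prss3 at 8.46, 7.70 and 8.17 and Try5 at 9.14, 7.53 and 8.17. Ctrc was at 7.63, 7.53 and 7.09, and Try4 was dim at 5.01, 4.68 and 4.90. The differences of these 5 genes were between -0.58 and -1.66 and not called (limma, adjusted p of 0.134 to 0.328). With Sox9-GFP+ replicate 1 left out, 5 of 10 members were lower (Cela1, Ctrc, Prss3, Try4 and Try5), and Cela3b turned to -0.83. In that fit 5273 of 16883 genes were called, 55.5% of them higher. The summed intensity of the 8 endocrine markers, 5 of them called higher, was 59060 to 70385 in Ngn3-GFP+ arrays and 28161 to 42410 in Sox9-GFP+ arrays, and their part in these differences was not tested.

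Against Sox9-GFP+ cells of e10.5, 7 of 10 members were higher in Ngn3-GFP+ cells, against 9.64% of all genes, and the same number lay above every e10.5 array, against 14.4%. The largest of these differences was 6.76 ± 0.24 for Ctrb1 (limma, adjusted p = 4.69e-10), followed by 3.15 ± 0.71 for Cela3b, 3.04 ± 0.47 for Prss3 and 2.99 ± 0.53 for Cela2a. With array weights Cela3b, Ctrc and Try5 lost their calls (limma, adjusted p of 0.0593, 0.117 and 0.0908), and Cela3b also lost its call without the arrays of high Hbb-y (limma, adjusted p = 0.0594). Ctrl was called lower, at -1.17, without Ngn3-GFP+ replicate 1, and Prss2 higher, at 2.11, without replicate 2. Ctrl at -0.67, Prss2 at 1.31 and Try4 at 0.03 were not called (limma, adjusted p of 0.149, 0.0908 and 0.989). These e10.5 arrays are also the base of the comparison with Sox9-GFP+ cells at e15.5, so both share their controls.

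At p23 the levels of 9 of 10 zymogen genes in Sox9-GFP+ cells lay 0.59 or less below those in GFP- cells, read near the top of the array scale. On each p23 array 9 members in Sox9-GFP+ cells and all 10 in GFP- cells lay above the 99th percentile of all genes, and at most 1 and 7 genes exceeded 14. Compression of differences at such levels was not tested. One of 10 members was called lower in Sox9-GFP+ cells, against 14.5% of all genes, and none higher, against 21.5%, nor at an unadjusted p under 0.05. The groups did not overlap for 9 of 10, all lower in Sox9-GFP+ cells, against 19.7% of all genes. The called member was Prss3, at 13.32, 13.33 and 12.90 in GFP- cells and 11.68, 11.74 and 11.58 in Sox9-GFP+ cells, a difference of -1.52 ± 0.47 (limma, adjusted p = 0.0204). The call was lost without Sox9-GFP+ replicate 3, without GFP- replicate 1 or 2, and with Sox9-GFP+ arrays 2 and 3 left out for their Ptprc signal, at -1.47, -1.45, -1.45 and -1.50.

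The other 9 members differed by -0.02 to -0.59 and were not called. Their standard errors rest on the spread in all 5 groups. For Try4 the SE was 0.91, with an SD of 0.09 in each p23 sort and 2.93 in Sox9-GFP+ cells of e15.5. Ctrb1 was at 13.90, 13.92 and 13.87 in GFP- cells and overlapped the Sox9-GFP+ arrays. Ctrl was at 13.79, 13.80 and 13.72 and Ctrc at 13.39, 13.37 and 13.29 in GFP- cells. Both lay above every Sox9-GFP+ array of p23, with Sox9-GFP+ minus GFP- differences of -0.40 ± 0.31 and -0.59 ± 0.32.

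Among the trypsinogens Prss2 was at 13.31, 13.33 and 13.30, Try4 at 13.07, 13.03 and 12.89 and Try5 at 13.57, 13.60 and 13.41 in GFP- cells. Among the proelastases Cela1 was at 13.87, 13.88 and 13.83, Cela2a at 13.81, 13.82 and 13.73 and Cela3b at 13.86, 13.85 and 13.78. For each of these 6 genes the lowest GFP- array was above the highest Sox9-GFP+ array. Quantile normalization turned the sign of the difference for Cela1, Cela2a, Ctrb1, Prss2, Try4 and Try5, to between 0.037 and 0.36, and none was called. Fitted on the p23 arrays alone, Cela3b, Ctrc and Ctrl were called lower along with Prss3. In that fit 5831 of 16883 genes were called, 59.2% of them higher.

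Ductal genes and regulators of acinar genes also differed between the p23 sorts. Krt19, a duct keratin, was at 11.80, 12.02 and 11.92 in Sox9-GFP+ and 9.26, 9.06 and 8.79 in GFP- cells, a difference of 2.88 ± 0.22 (limma, adjusted p = 1.33e-07). Cftr, the apical chloride channel of ducts, was at 10.25, 9.38 and 10.32 in Sox9-GFP+ cells and dim at 5.88, 5.64 and 5.74 in GFP- cells. Of 13 regulators 4 were higher in Sox9-GFP+ cells, led by Gata6 at 2.79 ± 0.17, and 6 were lower. Nr5a2, a nuclear receptor that binds many acinar genes, averaged 10.93 in Sox9-GFP+ and 9.93 in GFP- cells and was among those higher. The Ptf1a level was 7.27, 7.07 and 6.77 in Sox9-GFP+ and 9.17, 9.59 and 8.70 in GFP- cells, a difference of -2.12 ± 0.31 (limma, adjusted p = 6.94e-05). Bhlha15, a regulator of granule build-up in acinar cells, differed by -2.05 ± 0.21 (limma, adjusted p = 2.09e-06). The summed intensity of the 8 ductal markers was 18960 to 21402 in Sox9-GFP+ and 5791 to 6739 in GFP- arrays, and that of the 10 leukocyte markers 1871 to 4459 and 52557 to 79696. Of other marker lists, 5 of 8 endothelial, 5 of 8 mesenchyme and 4 of 8 endocrine markers were lower in Sox9-GFP+ cells. The part of these cell types, and of acinar cells in the Sox9-GFP+ sort, in the zymogen levels was not tested.

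The genes around the zymogens were counted by lists. Of all genes tested, 12.2% were higher and 16% lower from e10.5 to e15.5, and 30.7% were higher and 26.8% lower from e15.5 to p23. Between the e15.5 sorts 23.3% were higher and 18.4% lower in Ngn3-GFP+ cells, and between the p23 sorts 21.5% were higher and 14.5% lower in Sox9-GFP+ cells. The related proteases Try10 and Cela3a, which have probe sets of their own, both rose in the first step (2.64 ± 0.42 and 1.81 ± 0.51) and in the second (3.57 ± 0.42 and 3.13 ± 0.51). Between the p23 sorts Cela3a, the neighbour of Cela3b, differed by -1.94 ± 0.51, lower in Sox9-GFP+ cells (limma, adjusted p = 0.00808). Of 15 other digestive enzyme and granule genes, 10 rose and none fell from e10.5 to e15.5, with 5.22 ± 0.22 for the lipase-related gene Pnliprp1, 4.73 ± 0.69 for the procarboxypeptidase gene Cpb1 and 4.65 ± 0.29 for the carboxyl ester lipase gene Cel. From e15.5 to p23, 13 rose and 1 fell, with 8.13 ± 0.15 for Reg2, 7.10 ± 0.19 for Gp2, which codes for the main membrane protein of zymogen granules, and 6.72 ± 0.72 for Zg16, which codes for a granule lectin. In Ngn3-GFP+ cells 5 of 15 were lower than in Sox9-GFP+ cells and none higher, with -1.82 ± 0.65 for the lipase-related gene Pnliprp2, -1.72 ± 0.26 for the procarboxypeptidase gene Cpa1 and -0.92 ± 0.29 for Cel. At p23, 2 of 15 were lower in Sox9-GFP+ cells, the amylase gene Amy1 at -1.85 and Gp2 at -0.52.

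Inhibitors that could act on these proteases moved in both directions. Of 9 tested, 4 were higher and 1 lower at e15.5 than at e10.5. Serpini2, which codes for a serpin made in the pancreas, read 4.36, 4.76 and 5.02 on e10.5 arrays and 10.59, 11.01 and 11.48 on Sox9-GFP+ e15.5 arrays, a rise of 6.31 ± 0.23 (limma, adjusted p = 4.26e-10). Serpinb1a, the gene of an inhibitor of elastase- and chymotrypsin-like proteases, rose by 1.92 ± 0.32 (limma, adjusted p = 0.00106). Spink1, the gene of the secretory trypsin inhibitor, read 8.95, 8.52 and 7.86 on e10.5 arrays, 11.25, 11.43 and 11.97 on Sox9-GFP+ e15.5 arrays and 12.77, 12.80 and 12.60 on Sox9-GFP+ p23 arrays. It rose by 3.10 ± 0.38 (limma, adjusted p = 6.52e-05) and then by 1.18 ± 0.38 (limma, adjusted p = 0.0165), and its earlier step was the larger (limma, adjusted p = 0.0260). From e15.5 to p23, 5 inhibitors were higher and 2 lower, among them the antitrypsin gene Serpina1c at -3.19 ± 0.88 and Pzp, of the alpha-2-macroglobulin family, at 1.13 ± 0.39. In Ngn3-GFP+ cells Spink1 was at 10.22, 9.35 and 11.31 and Serpini2 at 9.37, 9.99 and 9.51, and they were lower than in Sox9-GFP+ cells at -1.25 ± 0.38 and -1.40 ± 0.23. In that comparison 1 inhibitor of 9 was higher and 4 lower, Wfdc2 at -1.67 ± 0.25. At p23, 2 were higher and 2 lower in Sox9-GFP+ than in GFP- cells, with 3.96 ± 0.25 for Wfdc2, -1.48 ± 0.32 for Serpinb1a and 1.30 ± 0.39 for Pzp.

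Genes that act on trypsinogen were read from a short list. Tmprss15, which codes for enteropeptidase, was dim in all 15 arrays, at 5.54 to 6.42, and was not tested. Ctsb, the gene of the lysosomal protease cathepsin B that can activate trypsinogen, was at 10.64, 10.26 and 9.94 at e10.5 and 10.98, 11.21 and 11.19 at e15.5, a rise of 0.85 ± 0.17 (limma, adjusted p = 0.00307). From e15.5 to p23 none of the 3 tested genes of this list was called. At p23 Ctsd and Ctsl were lower in Sox9-GFP+ than in GFP- cells, at -0.73 ± 0.19 and -0.53 ± 0.15.

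**Figure D4:**
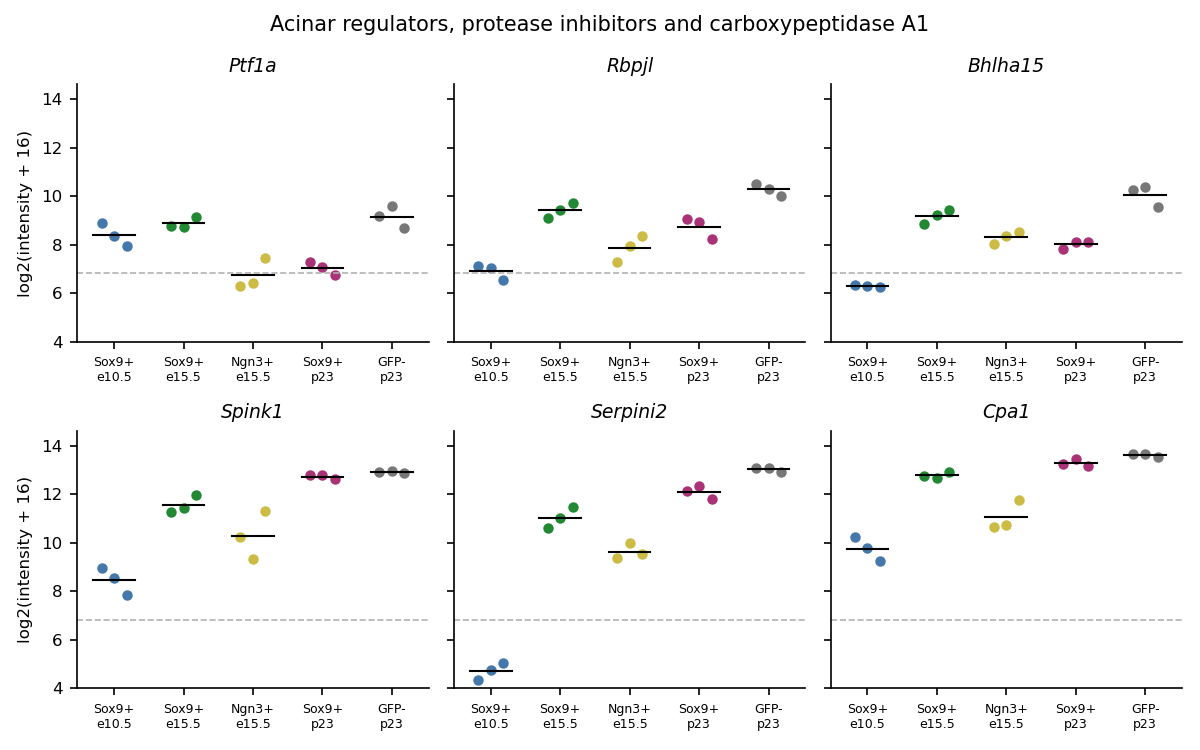
Levels, log2(intensity + 16), of the regulators Ptf1a, Rbpjl and Bhlha15, the inhibitors Spink1 and Serpini2 and the procarboxypeptidase Cpa1 on the 15 arrays, with bars at the means of 3 and the filter level of 6.83 dashed. Rbpjl and Bhlha15 are higher at e15.5 than at e10.5, and in Sox9-GFP+ cells at p23 Ptf1a is at 6.77 to 7.27.

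From e15.5 to p23 more regulators of acinar genes were lower than higher. Of 13 tested, 4 were higher and none lower at e15.5 than at e10.5. Bhlha15 was at 6.34, 6.31 and 6.26 at e10.5 and 8.85, 9.24 and 9.45 at e15.5, a rise of 2.88 ± 0.21 (limma, adjusted p = 6.77e-07). Rbpjl was at 7.13, 7.03 and 6.56 and then 9.11, 9.43 and 9.72, a rise of 2.51 ± 0.27 (limma, adjusted p = 2.72e-05), and Nr0b2 rose by 0.88 ± 0.24. From e15.5 to p23, 1 was higher and 7 lower, with -1.85 ± 0.31 for Ptf1a, -1.34 ± 0.20 for Foxa3 and -1.29 ± 0.18 for Tcf3, which codes for an E protein. In Ngn3-GFP+ cells 7 of 13 were lower than in Sox9-GFP+ cells and none higher, Ptf1a at -2.14 ± 0.31, Rbpjl at -1.56 ± 0.27 and Nr5a2 at -1.10 ± 0.18. Other serine proteases, 19 of them tested, showed no common direction, with 5 higher and 7 lower from e10.5 to e15.5 and 5 higher and 2 lower from e15.5 to p23. In the first step Prss8 was at 1.18 ± 0.27, Prss35 at 0.90 ± 0.32 and Tmprss2 at -0.85 ± 0.18, and in the second Tmprss2 was at 1.43 ± 0.18, Plau at 1.24 ± 0.25 and Hpn at 0.59 ± 0.18. Between the e15.5 sorts 3 were higher and 3 lower, with -1.08 ± 0.25 for Prss23, -0.97 ± 0.27 for Prss8 and -0.84 ± 0.23 for St14. Between the p23 sorts 3 were higher and 2 lower, with 3.00 ± 0.32 for Prss35, -2.15 ± 0.21 for F2 and 2.03 ± 0.23 for St14.

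Across the 15 arrays, which fall into 5 groups, the 45 pairs of members had a Pearson r of 0.448 to 0.992 with a median of 0.947. The lowest was Ctrb1 with Ctrl, the highest Cela2a with Cela3b, and Ctrb1 was the least similar member for each of the other 9. The gene nearest to Ctrb1 was the lipase-related gene Pnliprp1 (r = 0.987), and the one nearest to Ctrl was Gp2 (r = 0.996). Reg1 was nearest to Cela1 and Ctrc, Rnase1 to Cela3b, Sycn to Prss2, Pdia2 to Prss3, Ptger4 to Try4, Prss2 to Try5 and Cela3b to Cela2a. Outside the members, 2210010C04Rik (r = 0.987), the gene next to Try4 on chromosome 6, and Reg1 and Pdia2 (both r = 0.987) were the most similar to the mean of the 10, followed by Ifi27, Slc16a7, Try10, Itpr2, Man2a1, Dpt and Pnliprp2 at 0.979 to 0.986. The level of 2210010C04Rik averaged 5.44 at e10.5, 7.46 in Sox9-GFP+ and 6.93 in Ngn3-GFP+ cells at e15.5, and 13.46 in Sox9-GFP+ and 13.52 in GFP- cells at p23.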

How the data were processed

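RNA of sorted mouse pancreas cells was amplified from poly(A) RNA and hybridised to Affymetrix gene arrays, per the labels' protocols. The authors deposited linear intensity values per probe set; the submitters' processing notes name PLIER and Affymetrix Expression Console 1.1. A normalization between arrays is not stated there, and array medians were 165.5 to 211.7. Of 35557 probe sets, 21789 named 1 gene, and the one with the highest mean stood for its gene. Genes above the 30th percentile of all values in 3 arrays were kept. The deposited intensities were taken to log2(intensity + 16) and fitted over 15 arrays with 1 mean per group (limma 3.58.1, R 4.3.3; figures and motifs with Python 3.11.15). The fit was also run on simulated data in which each gene had the same spread in all groups. The members did not have this, so that run does not bear on their p-values.

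The members and lists were chosen with earlier results of these data known. All members were named, and, for the lists of enzymes, inhibitors, activators, regulators and other proteases, the called genes with the 3 largest changes in the steps between successive ages and between the sorts of one age. The rule covered marker lists and the remaining comparisons as well, for which counts or selected genes are given instead. For likeness, the 10 genes of highest r with the member mean and the nearest gene of each member were named. Genes from the marker checks were named for the labels, and other members of lists where a value bore on the zymogens. Cross-hybridization among the trypsinogen probe sets was not tested. Arrays were not paired by replicate number in the main fit. Deviations from the group means correlated at -0.49 to 0.20 between same-numbered arrays of different groups. Only between Sox9-GFP+ e15.5 and p23 did every array correlate best with its own number. Alternatives were other filters, median centring, quantile normalization, offsets of 1 and 64, the mean of probe sets, the groups of a contrast alone, another variance model, array weights, the replicate block and each array left out. Fits without arrays of high Hbb-y, or of high Ptprc among Sox9-GFP+ p23, were added after seeing the data.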

Additional observations from a re-analysis of the deposited data

How the results depend on the processing

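The counts of members called from e10.5 to e15.5, from e15.5 to p23 and from e10.5 to p23 stayed within 1.5 times the reported count in every alternative run. For Ngn3-GFP+ against Sox9-GFP+ cells the count of 2 became 1 with offset 64 and with the filter at the median. It was also 1 with the groups of the contrast alone and with the replicate block. In these fits, in that order, 6825, 4878, 5916 and 6246 genes were called, 53.3, 40.7, 59.5 and 54.4% of them higher. With single arrays left out the count was 1 to 5. It was 5 without Sox9-GFP+ e15.5 replicate 1, where 5273 of 16883 genes were called, 55.5% of them higher. For Ngn3-GFP+ cells against e10.5 the count of 7 became 4 with array weights, where 2182 of 16883 genes were called and 45.6% of these were higher. At p23 the count of 1 became 4 with the groups alone, where 5831 of 16883 genes were called and 59.2% of these were higher. It was 0 to 1 with single arrays left out. For the step difference the count of 4 became 7 with offset 64, where 7965 of 16883 genes were called and 54.6% of these were higher. The replicate block changed no other count. By deviation from the group mean, all 6 arrays of Sox9-GFP+ e15.5 and p23 correlated best with their own number. This held for 2 of 6 between the p23 sorts and 0 of 6 in the other pairs of groups compared.

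Some changes turned sign. Under quantile normalization the p23 difference between sorts was 0.12 for Cela1, 0.11 for Cela2a, 0.36 for Ctrb1, 0.17 for Prss2, 0.037 for Try4 and 0.046 for Try5, and Ctrb1 changed by -0.061 from e15.5 to p23. The p23 difference of Ctrb1 was 0.013 with array weights, -0.043 to 0.0146 with single arrays left out (positive without Sox9-GFP+ replicate 3), and 0.0013 without the arrays of high Ptprc. The step difference of Cela1 was -0.024 with offset 1, -0.50 to 0.74 with single arrays left out (negative without e10.5 replicate 1, at -0.13, and without Sox9-GFP+ e15.5 replicate 1) and -1.12 without the arrays of high Hbb-y. That of Cela3b was -0.72 to 2.45 with single arrays left out, negative without Sox9-GFP+ e15.5 replicate 1, and -0.40 without the arrays of high Hbb-y, and that of Prss3 was 0.24 with offset 64 and -2.26 to 0.40 with single arrays left out. Between the e15.5 sorts Cela3b was at -0.83 to 0.76 with single arrays left out (-0.71 without Ngn3-GFP+ replicate 1) and -0.83 without the arrays of high Hbb-y, and Try4 at -2.57 to 0.0305, positive without Sox9-GFP+ replicate 3. From e10.5 to e15.5 Try4 changed by -0.0033 to 2.60 with single arrays left out, negative without Sox9-GFP+ e15.5 replicate 3, and Ctrl by -0.13 without the arrays of high Hbb-y. Ngn3-GFP+ cells against e10.5 gave -0.15 to 0.13 for Try4 with single arrays left out, negative without e10.5 replicate 3 and, at -0.046, without Ngn3-GFP+ replicate 1. The cause of these turns was not tested. Precision is limited by 3 arrays a group and, at e10.5, by dim values.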

Other observations

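Both probe sets left out because they name Prss3 together with Prss1, Gm10334 and Gm5771 had an early course. One read 5.25, 5.54 and 5.50 on the e10.5 arrays, 8.35, 10.69 and 11.12 on the Sox9-GFP+ arrays of e15.5, and 12.07, 11.91 and 11.81 on those of p23. Its Ngn3-GFP+ arrays read 9.97, 9.10 and 9.87 and its GFP- arrays 13.24, 13.26 and 13.04. The other was at 5.20, 5.52 and 5.59, then 7.59, 10.13 and 10.60, then 11.46, 11.42 and 11.27 in the Sox9-GFP+ stages. As for the Prss3 probe set used, every Sox9-GFP+ array of p23 lay below every GFP- array, and Sox9-GFP+ e15.5 replicate 1 was the lowest array of its group. Which of the named genes gave the signal cannot be told from these probe sets.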
